A study of Mus musculus with 6 samples.

Results

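The 10 genes of MHC class I antigen processing H2-K1, H2-D1, B2m, Tap1, Tap2, Tapbp, Psmb8, Psmb9, Psmb10 and Nlrc5 were followed across 6 conditions of mouse macrophages. They were chosen by name, and all 10 were found among the 24062 gene rows of the count tables. RNA was sequenced from RAW264.7 cells, a macrophage-like line established from a virus-induced tumour of a BALB/c mouse, while the tissue label names bone marrow. M0 cells were not polarized, M1 cells received LPS at 100 ng/mL with IFN-γ at 20 ng/mL for 24 h, and M2 cells received IL-4 at 20 ng/mL for 24 h. A figure legend of the study's paper gives 10 ng/mL for IFN-γ and for IL-4 instead. RM0, RM1 and RM2 were the same 3 states exposed after polarization to 10 Gy of gamma radiation from a cesium source and kept for 24 h more. The sources used here do not state whether the non-irradiated cells were kept for the same added time, so irradiation and time in culture cannot be told apart. Each condition had 1 library made from RNA pooled from 5 wells, so no spread between replicates exists and a difference between 2 libraries has no replicate check. In such bulk RNA, fewer cells of a type and less RNA per cell cannot be told apart.

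MHC class I molecules show peptides of the cell's own proteins to CD8+ T cells. The proteasome cuts the proteins, the TAP transporter carries the peptides into the endoplasmic reticulum, tapasin holds the empty heavy chain with its β2-microglobulin partner at the transporter, and the loaded complex moves to the cell surface. IFN-γ is a known inducer of these genes, among them the 3 immunoproteasome subunits that take the place of the standard catalytic subunits, and in macrophages the pathway also serves cross-presentation of engulfed material.

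The libraries held 17894937 to 18870516 counted reads, and the 10 genes took from 0.174% of them in RM2 to 0.690% in M1. Counts were scaled with TMM, which corrects each library total for its composition, and fold changes are given as log2 values with a prior count of 2. A gene was called higher or lower when its 2 libraries differed 2-fold and either of them held 10 counts or more. Intervals at 95% cover counting error only. In genes with many reads they can exclude 0 at small differences, and the share of all genes whose interval does so is not given here. Of 6 macrophage markers, 5 were found in the tables and summed to between 249207 and 642201 counts. The T cell markers summed to 0 to 1 count, the B cell markers to 1 to 4, the epithelial markers to 0 and the dendritic cell markers to 15 to 36. The 4 fibroblast markers summed to between 120 and 730 counts, nearly all from Dcn, which had 627 counts in M1, 726 in RM1 and 113 to 177 in the other libraries. Col1a2 was at 0 in all 6 libraries, and the part of these markers in the results was not tested.

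Of the 10 genes, 7 were listed on chromosome 17 of GRCm38, and 4 of these stand side by side. Psmb9 (34182099 to 34187330, minus strand), Tap1 (34187556 to 34197225, plus strand), Psmb8 (34198195 to 34201454, plus strand) and Tap2 (34204479 to 34216321, plus strand) follow each other in that order. Tapbp was listed at 33919478 to 33929290 on the plus strand, H2-K1 at 33996012 to 34000333 on the minus strand and H2-D1 at 35266866 to 35267497 on the plus strand. B2m was listed on chromosome 2 at 122147687 to 122153082, and Psmb10 (105935728 to 105938392) and Nlrc5 (94505106 to 94527272) on chromosome 8. The listed span covered 14.35% of the annotated H2-D1 gene and 23.85% of Nlrc5, so where in these genes reads were counted is not known. For the other 8 genes it covered at least 93.79%. The reference genome is that of a C57BL/6 mouse, which carries other alleles of the polymorphic H2-K1 and H2-D1 genes than BALB/c does. How this affects the counts of those genes was not tested.

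Promoters from the RefSeq table, 250 bases before to 50 bases after each start on GRCm38.p6, were found for 8 of the 10 genes. Tap2 and Nlrc5 had no entry. Class I promoters are known for an enhancer with a κB element, for an interferon response element and for the SXY module, whose X2 and Y boxes are bound by factors that Nlrc5 joins. The letters of these elements were searched on both strands, and a match is a description and not a site. The stretches below were chosen because they hold most of the matches and because their genes were higher together in M1. Capitals mark the κB letters, TGACG (found in the X2 element), ATTGG (the inverted CCAAT box of the Y element, printed as its complement where it lies on the other strand) and, in B2m, the core of the interferon-stimulated response element.

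H2-K1 (chr17:34000334-34000468, minus strand, the 135 bases before the start): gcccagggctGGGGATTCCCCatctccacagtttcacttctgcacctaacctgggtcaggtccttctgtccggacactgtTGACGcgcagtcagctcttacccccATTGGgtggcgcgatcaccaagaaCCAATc

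H2-D1 (chr17:35262913-35263055, plus strand, 181 to 39 bases before the start): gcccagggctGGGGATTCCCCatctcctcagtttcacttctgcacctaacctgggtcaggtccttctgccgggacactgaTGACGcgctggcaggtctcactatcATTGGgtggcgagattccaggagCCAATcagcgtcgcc

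B2m (chr2:122147537-122147686, plus strand, the 150 bases before the start): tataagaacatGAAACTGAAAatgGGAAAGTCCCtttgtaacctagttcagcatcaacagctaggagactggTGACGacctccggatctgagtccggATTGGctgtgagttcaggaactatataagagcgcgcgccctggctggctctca

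Psmb9 and Tap1 (chr17:34187331-34187555, plus strand, all 225 bases between the 2 starts): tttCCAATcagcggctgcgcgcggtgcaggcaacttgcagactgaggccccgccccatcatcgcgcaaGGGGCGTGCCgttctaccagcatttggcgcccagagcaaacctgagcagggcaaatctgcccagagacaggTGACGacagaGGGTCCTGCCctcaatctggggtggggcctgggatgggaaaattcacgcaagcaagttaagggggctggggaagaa

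The H2-K1 and H2-D1 stretches were identical at 119 of 134 aligned bases (88.8%), with the κB letters, TGACG and both matches to the Y box letters in the same order. B2m carried the κB, X2 and Y letters as well. Of the 8 promoters, only that of B2m matched the letters searched for the core of the interferon-stimulated response element. Those letters were in 2.98% of all 32851 promoters. An interferon response element spelled with other letters would not be found by this search. The H2-K1 and H2-D1 promoters, without a match, are therefore not shown to lack such an element. Psmb9 and Tap1 are read away from each other from this single stretch, so its matches to the X2, Y box and κB letters fall in both promoters. The search did not weigh the distance between matches. TGACG and the Y box letters lie 86 and 222 bases before the start of Tap1, but 78 and 53 bases before that of B2m. A GENCODE M21 transcript of Psmb9 reaches past the start of Tap1 on the other strand, and without a stated strand setting reads there cannot be assigned. In all, TGACG was in 5 of the 8 promoters, against 17.77% of all promoters. The Y box letters were in 6 (33.85%) and the κB letters in 5 (14.89%). These counts include both Psmb9 and Tap1, which share their stretch, and both H2-K1 and H2-D1, whose stretches are alike. They are therefore not counts of separate sequences, and a difference from all promoters was not tested. The letters TTCNNNGAA of the GAS element, a target of interferon signalling, were in 1, the Psmb8 promoter, as TTCCCAGAA 97 bases before the start, and in 7.02% of all promoters. The Psmb10 window held no match to any of these letters.

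In M1 all 10 genes were higher than in M0. The log2 fold changes ran from 1.18 for Nlrc5 to 3.68 for Psmb10 with a median of 1.88, and all 10 counting intervals lay above 0. Over all 11778 genes with enough counts, 9.37% were called higher and 13.3% lower, and the median was -0.03. In the irradiated libraries, RM1 against RM0, 6 of the 10 were called higher with a median of 1.26, beside 6.16% higher and 7.87% lower of all 11713 genes. For the effect of M1 common to the non-irradiated and the irradiated pair, edgeR's quasi-likelihood test was run over 11574 genes in a model of state and irradiation with 2 residual degrees of freedom. All 10 genes rose, with adjusted p from 9.75e-06 to 0.00223, in a table in which 23.3% of genes passed as higher and 24.3% as lower. The test takes the irradiated and the non-irradiated pair as replicates of each other.

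**Figure D1:**
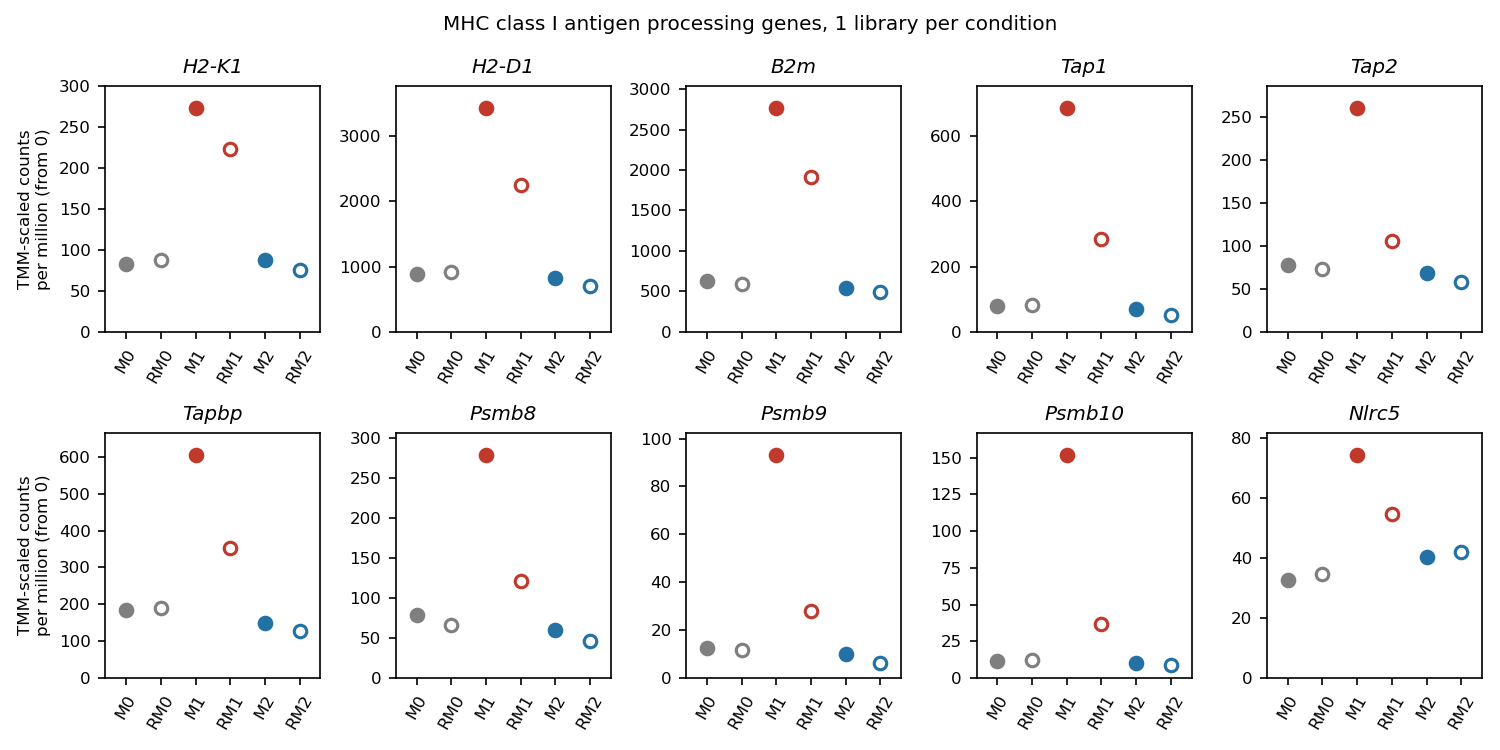
Each panel plots the TMM-scaled CPM, the read count relative to the scaled library size (vertical axis from 0), of 1 gene in the 6 libraries (horizontal axis), with filled points for non-irradiated and open points for irradiated libraries, in grey for M0, red for M1 and blue for M2. In every panel M1 stands highest and RM1 second, for example 686 and 283 CPM for Tap1 beside at most 81.1 in the other 4 libraries.

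The heavy chains and β2-microglobulin form the complex itself. H2-D1, a classical heavy chain, had counts of 17707 (M0), 17982 (RM0), 50745 (M1), 37456 (RM1), 16665 (M2) and 13777 (RM2). B2m, the light chain shared by all class I molecules, had 12396, 11536, 40875, 31954, 10965 and 9656 counts in the same order. H2-K1, the other classical heavy chain, had 1631, 1720, 4033, 3716, 1786 and 1498. In all 3 genes M1 and RM1 were the 2 highest libraries. For M1 against M0 the log2 fold change was 2.14 for B2m (95% interval 2.12 to 2.17), 1.94 for H2-D1 (1.92 to 1.97) and 1.73 for H2-K1 (1.65 to 1.81). The 3 genes thus stood 3.31-fold to 4.42-fold higher. For RM1 against RM0 the values were 1.70 for B2m, 1.29 for H2-D1 and 1.34 for H2-K1. B2m gave between 0.642 and 0.701 reads per read of H2-D1 in the 4 libraries without LPS and IFN-γ, 0.805 in M1 and 0.853 in RM1. H2-K1 gave between 0.0795 reads per read of H2-D1 in M1 and 0.109 in RM2. The row named H2-L lies within the annotated H2-D1 gene over 43 bases, and it had 0.706 to 0.747 reads per read of H2-D1 in all 6 libraries, and whether reads of these rows were kept apart is not known.

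Tap1 and Tap2 encode the subunits of the peptide transporter, and tapasin bridges it to the heavy chains. Tap1 had counts of 1553 (M0), 1590 (RM0), 10148 (M1), 4725 (RM1), 1427 (M2) and 997 (RM2). Tap2 had 1540, 1436, 3839, 1761, 1388 and 1151 counts, and Tapbp, which encodes tapasin, had 3652, 3701, 8952, 5900, 3055 and 2525. M1 was the highest and RM1 the second library for each of them. Tap1 was 8.75-fold higher in M1 than in M0, a log2 fold change of 3.13 (3.05 to 3.21), while Tap2 was 1.74 higher (1.66 to 1.83) and Tapbp 1.72 (1.66 to 1.77) on the log2 scale. The subunits of the transporter were therefore not raised alike. There were 1.01 reads of Tap1 per read of Tap2 in M0, 1.03 in M2 and 1.11 in RM0, against 2.64 in M1 and 2.68 in RM1, and 0.866 in RM2. For RM1 against RM0, Tap1 was 1.80 higher, Tapbp 0.91 and Tap2 0.53 on the log2 scale, so that only Tap1 of the 3 was called. Psmb9 shares its start region with Tap1 and had fewer reads throughout, with at least 6.24 reads of Tap1 per read of Psmb9 in each library.

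Of the 10 genes, the immunoproteasome subunits Psmb10 and Psmb9 had the widest range over the 6 libraries, 4.06 and 3.91 on the log2 scale. Psmb10 had counts of 233 (M0), 241 (RM0), 2245 (M1), 608 (RM1), 211 (M2) and 178 (RM2). Psmb9 had 249, 233, 1378, 468, 200 and 121 counts, and Psmb8 had 1578, 1309, 4132, 2025, 1225 and 925. For each subunit the 4 libraries without LPS and IFN-γ lay below RM1, and RM1 lay below M1. Psmb10 was 12.8-fold higher in M1 than in M0 (log2 3.68, 3.50 to 3.89), Psmb9 7.37-fold (2.88, 2.70 to 3.09) and Psmb8 3.51-fold (1.81, 1.73 to 1.90). For RM1 against RM0 the log2 fold changes were 1.56, 1.23 and 0.86.

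Each immunoproteasome subunit replaces 1 standard subunit in newly built proteasomes, Psmb8 for Psmb5, Psmb9 for Psmb6 and Psmb10 for Psmb7. Psmb8 had 0.518 reads per read of Psmb5 in M0 and 1.77 in M1, and 1.04 in RM1. The ratio of Psmb10 to Psmb7 was 0.0754 in M0, 0.564 in M1 and 0.192 in RM1. For Psmb9 to Psmb6 it was 0.0499, 0.209 and 0.0882. In all 3 pairs the ratio in RM1 lay between those of M0 and M1 with no overlap of the counting intervals. In M2, RM0 and RM2 the ratios were 0.451 to 0.477 for the first pair, 0.0277 to 0.0469 for Psmb9 to Psmb6 and 0.0721 to 0.0839 for Psmb10 to Psmb7. These ratios do not depend on the scaling of the libraries, but they compare rows of unequal length, and the listed span of Psmb5 covered 5.21% of that gene, so only their change between libraries is read. The standard subunits themselves were called in none of the comparisons. The shares of all genes called ran from 0.442% (lower in M2 against M0) to 13.3% (lower in M1 against M0). In the edgeR test Psmb6 (log2 0.58) and Psmb7 (0.59) rose with M1, with adjusted p of 0.00716 and 0.00446. Psmb5 had a log2 value of -0.11 with an adjusted p of 0.487. In that test 23.3% of all genes passed as higher and 24.3% as lower.

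**Figure D2:**
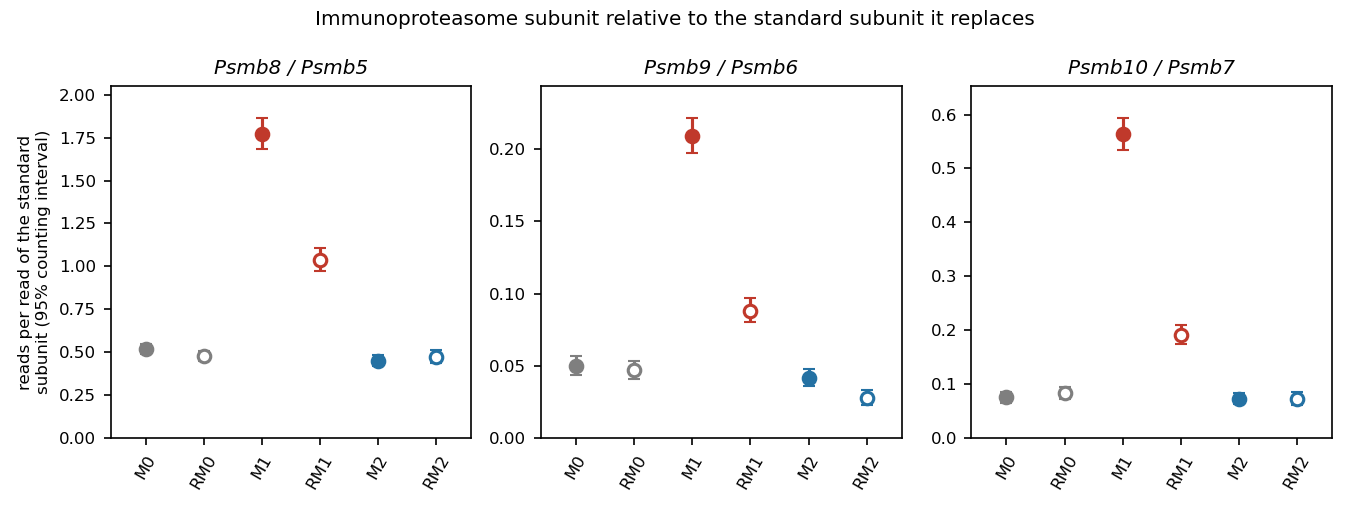
The 3 panels plot the reads of Psmb8, Psmb9 and Psmb10 per read of Psmb5, Psmb6 and Psmb7 (vertical axis from 0) in the 6 libraries, with 95% counting intervals as bars and filled points for non-irradiated, open points for irradiated libraries. M1 is highest in each panel, at 1.77, 0.209 and 0.564, and RM1 stands between M1 and the rest, at 1.04, 0.0882 and 0.192.

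Nlrc5, the transactivator recruited to class I promoters, varied least. It had counts of 650 (M0), 678 (RM0), 1099 (M1), 909 (RM1), 817 (M2) and 832 (RM2). M1 and RM1 were again the highest, but the 6 libraries spanned 1.18 on the log2 scale, against 1.85 to 4.06 for the other 9 genes. M1 stood 1.18 above M0 on the log2 scale (1.04 to 1.32), and RM1 0.65 above RM0 (0.51 to 0.80). The M2 library was 0.30 above M0 on the log2 scale (0.15 to 0.45), the highest value for M2 against M0 among the 10 genes.

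Per length of transcript, the members also changed places. In M0, the TMM-scaled CPM per kilobase of transcript was 727 for B2m, 425 for H2-D1, 63.5 for Tapbp, 50.8 for H2-K1, 48.9 for Psmb8, 26.5 for Tap1 and 22.6 for Tap2. Psmb9, Psmb10 and Nlrc5 were lowest at 9.29, 8.96 and 4.72. In M1 the same scale gave 3215 for B2m, 1633 for H2-D1, 232 for Tap1, 209 for Tapbp, 172 for Psmb8, 168 for H2-K1, 116 for Psmb10, 75.4 for Tap2, 68.9 for Psmb9 and 10.7 for Nlrc5. B2m and H2-D1 led in both libraries and Nlrc5 was last in both, while Tap1 and Psmb10 moved up the order in M1. With 1 library per condition, which neighbours in these orders differ beyond the spread between samples cannot be told. The values for H2-D1 and Nlrc5 use the whole transcript although their listed spans were shorter.

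After gamma irradiation, the 10 genes were lower in RM1 than in M1. For 5 of them, Tap1, Tap2, Psmb8, Psmb9 and Psmb10, the difference passed 2-fold, beside 2.25% called lower and 3.08% called higher of all 11443 genes. The median of the 10 log2 fold changes was -0.99, that of all genes was -0.01, and all 10 counting intervals lay below 0. Psmb10 was 4.15-fold lower (log2 -2.05, -2.19 to -1.93), Psmb9 3.31-fold (-1.73, -1.89 to -1.58), Tap2 2.46-fold (-1.30), Tap1 2.42-fold (-1.28) and Psmb8 2.30-fold (-1.20). The genes of the complex itself differed less, with B2m at -0.53, H2-D1 at -0.61 and H2-K1 at -0.29. Tapbp was at -0.77 and Nlrc5 at -0.45. Of the 10, the genes for cutting and transport thus stood at 2.30-fold to 4.15-fold lower and the others at 1.22-fold to 1.71-fold. Outside the 10 this split did not hold throughout. The 3 standard catalytic subunits had a median of -0.49, with 0 called. Of 18 other heavy chains, 1 was called lower, H2-T23 at -1.12, and 1 higher, with a median of -0.64. This comparison shares the M1 library with that of M1 against M0, so the values of both rest on the same M1 counts.

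In the M0 and M2 states the differences were smaller. Between RM0 and M0, 0 of the 10 genes were called, beside 0.719% called higher and 0.821% called lower of all genes. The log2 fold changes ran from -0.25 for Psmb8 (-0.36 to -0.15) to 0.09 for H2-K1 (-0.0044 to 0.19), and their median was 0.04. Between RM2 and M2, 0 genes were called, beside 1.03% higher and 0.932% lower of all genes. Here 8 of the 10 counting intervals lay below 0, without a share of all genes to set beside them. The lowest values were those of Psmb9 at -0.68 (-1.03 to -0.36) and Tap1 at -0.48 (-0.60 to -0.37), and the median was -0.24. Nlrc5 at 0.06 and Psmb10 at -0.21 had intervals that reached across 0. H2-D1 stood at 0.04 (0.01 to 0.07) in RM0 against M0 and at -0.61 (-0.63 to -0.59) in RM1 against M1. The first value turned to -0.01 when the libraries were scaled by their totals.

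**Figure D3:**
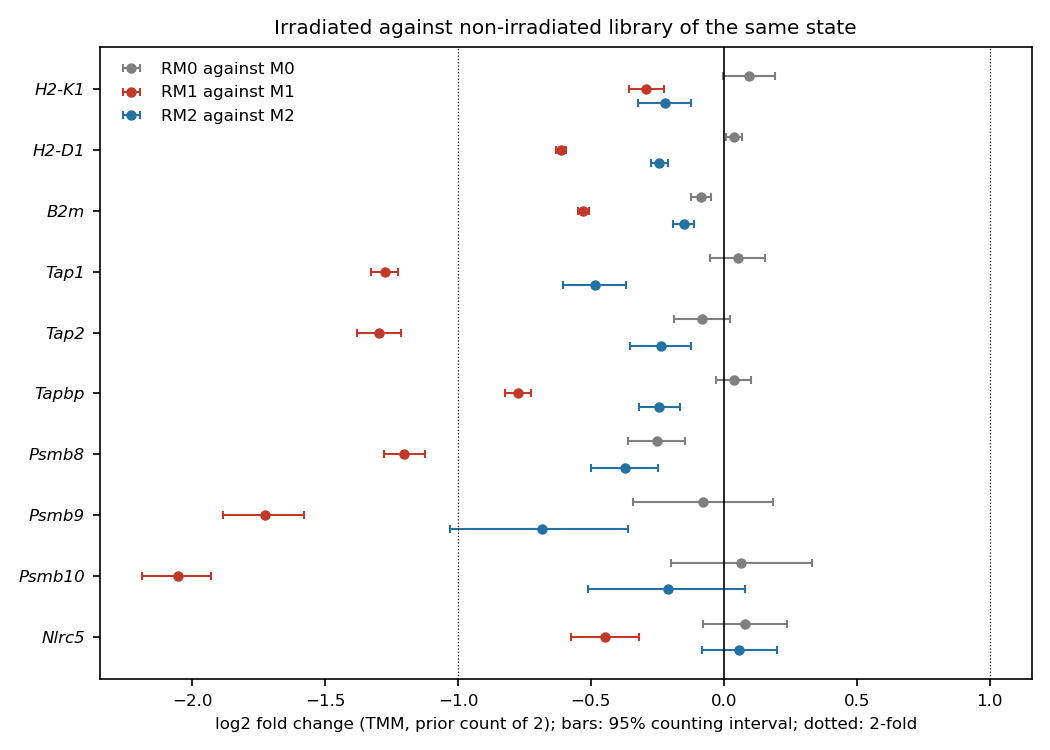
The plot shows log2 fold changes (horizontal axis) of the 10 genes (vertical axis) for RM0 against M0 in grey, RM1 against M1 in red and RM2 against M2 in blue, with 95% counting intervals as bars and dotted lines at 2-fold. All red points lie left of 0, from -0.29 for H2-K1 to -2.05 for Psmb10, while the grey points stay between -0.25 and 0.09.

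An irradiation effect shared by the 3 states was not called for any of the 10 genes. In the edgeR quasi-likelihood test the log2 values were all negative, from -0.11 for Nlrc5 to -0.91 for Psmb9, and the lowest adjusted p values were 0.141 for Psmb8 and 0.153 for Psmb9. Unadjusted p was under 0.05 for 6 genes, beside 14.7% of all genes. DESeq2's Wald test called 1, Psmb8, lower with an adjusted p of 0.0438, beside 0.302% of all genes called lower. Of all 11574 genes, 0.346% rose and 0.13% fell in the edgeR test. The model assumes the same effect in each state, which the values of RM0, RM1 and RM2 side by side do not show, and whether the states differ could not be tested with 1 library each. Without M0 and RM0 the edgeR test called 2 of the 10 lower (Tap1 and Psmb9), beside 0.403% of all genes. Without M2 and RM2 it called 4 lower (Tap2, Psmb8, Psmb9 and Psmb10), beside 0.397%, and without M1 and RM1 it called 0, beside 2.09%.

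The rise with LPS and IFN-γ was smaller in the irradiated pair for all 10 genes. The 2 pairs share no library. The log2 fold change of RM1 against RM0 minus that of M1 against M0 was -2.12 for Psmb10 (counting interval -2.32 to -1.92), -1.65 for Psmb9, -1.33 for Tap1 and -1.21 for Tap2. It was -0.95 for Psmb8, -0.81 for Tapbp and -0.65 for H2-D1. The smallest gaps were -0.52 for Nlrc5, -0.44 for B2m and -0.39 for H2-K1 (-0.47 to -0.30). The median was -0.88. Of the 1120 genes that were 2-fold higher in M1 than in M0 and had 10 counts or more in any of the 4 libraries of these pairs, 87.1% also had the smaller value in the irradiated pair, with a median difference of -0.54. These genes were selected on their values in M1 against M0.

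**Figure D4:**
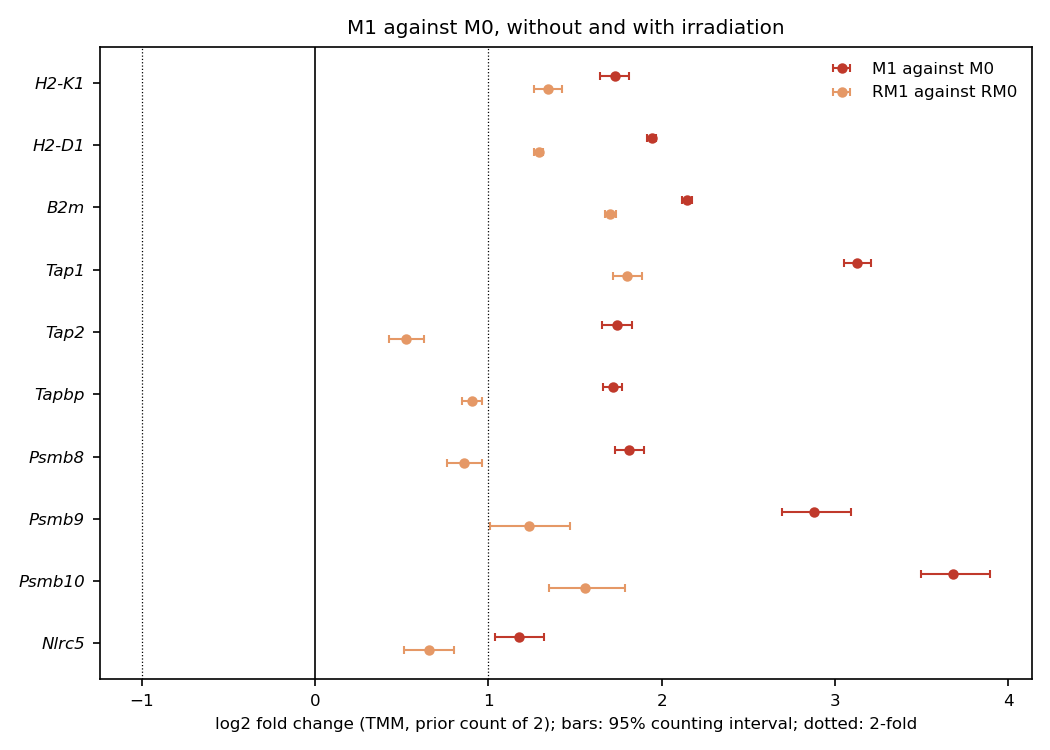
The plot shows log2 fold changes (horizontal axis) of the 10 genes (vertical axis) for M1 against M0 in red and RM1 against RM0 in orange, with 95% counting intervals as bars and dotted lines at 2-fold. Each orange point lies left of its red point, by 0.39 for H2-K1 at the least and 2.12 for Psmb10 at the most in absolute size.

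None of the 10 genes passed 2-fold with IL-4. In M2 against M0, 0 genes were called, beside 0.995% higher and 0.442% lower of all genes, and the log2 fold changes ran from -0.40 for Psmb8 to 0.30 for Nlrc5 with a median of -0.18. Of their intervals, 7 lay below 0 and 2 above, without a share of all genes to set beside them. In RM2 against RM0, 0 genes were called, beside 1.66% higher and 0.953% lower, and the values ran from -0.95 for Psmb9 (-1.29 to -0.64) to 0.28 for Nlrc5 with a median of -0.43. In the edgeR test of the M2 effect, in which 0.156% of all genes rose and 0.0346% fell, 0 of the 10 passed. Unadjusted p was under 0.05 for Tapbp and Psmb8, with log2 values of -0.44 and -0.46, beside 1173 of all 11574 genes, and DESeq2 called 0. Without M1 and RM1 the edgeR test called 4 lower (Tap1, Tapbp, Psmb8 and Psmb9), beside 4.71% of all genes. The label of the M2 libraries was checked against 4 genes that IL-4 induces in macrophages. Arg1 had 31 counts in M2 against 0 in M0, and 89 in RM2 against 2 in RM0. Mrc1 had 6 counts in M2 against 10 in M0, and 12 in RM2 against 5 in RM0, with 50 in M1 the highest. Retnla and Chil3 were at 0 in all 6 libraries.

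Scaling by library totals in place of TMM moved the median of all genes to -0.46 in M1 against M0, to -0.25 in RM1 against RM0 and to 0.13 in RM1 against M1. On that scale 9 of the 10 genes were called higher in M1, with Nlrc5 at 0.74, and 5 in RM1, with Psmb9 at 0.98, and the same number of 5 was lower in RM1 than in M1. The direction of these 3 comparisons held for all 10 genes on that scale. Over all genes, library totals gave 601 called higher and 2984 lower in M1 against M0, beside 1104 and 1569 with TMM. They gave 498 and 1493 in RM1 against RM0, beside 722 and 922, and 482 and 202 in RM1 against M1, beside 353 and 258. In RM2 against M2 the split was 98 and 149, beside 122 and 110. In the edgeR test of M1 it was 1091 and 4750, beside 2692 and 2817.

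Of 25 other heavy chains listed, 18 had enough counts in M1 against M0. Of these, 13 were called higher and 0 lower, beside 9.37% and 13.3% of all genes. The median log2 fold change of the 18 was 1.90. The 13 include H2-L and the near copies named at the end of the paragraph, so they are not 13 separate measurements. They also include H2-T3, which had 0 counts in M0 and 11 in M1 and passed the count filter only through M1. The 5 not called were H2-Bl, Mr1, H2-M3, H2-Q2 and H2-T24, from 0.90 for H2-Bl to -0.89 for H2-T24. In RM1 against RM0 13 of 18 were called higher too, beside 6.16% of all genes, and the median of the 18 was 1.31. H2-T3 was again among them, with 0 counts in RM0 and 52 in RM1. The edgeR test called 16 of 18 higher, H2-T3 among them, and 1, H2-T24, lower with M1, beside 23.3% and 24.3% of all genes. It called 0 with irradiation, beside 0.346% higher and 0.13% lower of all genes, and 0 with M2, beside 0.156% and 0.0346%. H2-T23, the heavy chain of the nonclassical molecule Qa-1, had counts of 2765 (M0), 2709 (RM0), 7761 (M1), 4017 (RM1), 2414 (M2) and 1819 (RM2). It was 1.91 higher in M1 than in M0 on the log2 scale and stood at -1.12 in RM1 against M1, the only heavy chain called lower there. H2-Q1 had 217, 208, 725, 795, 226 and 249 counts in that order, and was called higher in both M1 and RM1. H2-Q2 had counts of 351 (M0), 94 (RM0), 327 (M1), 239 (RM1), 106 (M2) and 89 (RM2). Its highest libraries were M0 and M1, with a log2 fold change of -1.86 in RM0 against M0. In M2 against M0, 2 of 18 heavy chains were called lower and 1 higher, beside 0.442% and 0.995% of all genes. The 2 were H2-Bl at -1.10 and H2-Q2, with 106 counts in M2 against 351 in M0. The 1 was H2-T3, with 41 counts in M2 against 0 in M0. H2-Q6 and H2-Q8 had identical counts in all libraries (818 in M0 and 2287 in M1), as had H2-Q7 and H2-Q9, and H2-T9 and H2-T22 differed by 1 read in 1 library, so these near copies were not measured apart.

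Other steps of the pathway were less uniform. Psme1 and Psme2, the subunits of the PA28 proteasome activator, were 1.88 and 1.86 higher in M1 than in M0 and were both called lower in RM1 than in M1, Psme2 at -1.02 on the log2 scale and Psme1 just past 2-fold. Psme1 had counts of 1546 (M0), 1553 (RM0), 4259 (M1), 2400 (RM1), 1412 (M2) and 1261 (RM2). Pomp, the chaperone of proteasome assembly, was 1.39 higher in M1. Psme3, which encodes the activator subunit of another, nuclear complex, fell in the edgeR test of M1 (log2 -0.58, adjusted p 0.00212), and the reads of Psme1 per read of Psme3 were 0.485 in M0, 2.74 in M1 and 1.41 in RM1. Of 5 trimming peptidases, Npepps, a cytosolic aminopeptidase, was 1.32 higher in M1 and 1.18 higher in RM1 against RM0, and Thop1, a peptidase that destroys peptides in the cytosol, was called lower in RM1 against RM0 at -1.13. The edgeR test called 2 of the 5 higher with M1, Npepps and Erap1, and 2 lower, Thop1 and Tpp2, beside the 23.3% higher and 24.3% lower of all genes. Of 6 genes for folding and loading in the endoplasmic reticulum, Tapbpl and the chaperones Hspa5 and Calr were 1.96, 1.74 and 1.62 higher in M1. The edgeR test of M1 called these 3 and Pdia3 higher and 0 lower, beside the same shares. Tapbpl, a tapasin relative, had counts of 159 (M0), 166 (RM0), 465 (M1), 201 (RM1), 172 (M2) and 166 (RM2), and its log2 fold change was -1.38 in RM1 against M1.

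Among 15 genes of transcriptional control, 4 were called higher and 1 lower in M1 against M0, beside 9.37% and 13.3% of all genes. In RM1 against M1, 2 were called lower, beside 2.25% of all genes. Irf1, an interferon-induced activator of class I genes, had counts of 419 (M0), 404 (RM0), 8628 (M1), 1710 (RM1), 405 (M2) and 343 (RM2). It was 27.5-fold higher in M1 than in M0 and 4.95-fold higher in RM1 than in RM0. Irf8, a related factor of myeloid cells, had 1493, 1552, 6225, 2052, 1317 and 1086 counts. Both were lower in RM1 than in M1, Irf1 by a log2 fold change of -2.51 and Irf8 of -1.77. Stat2, a component of the interferon-activated factor ISGF3, had counts of 1294 (M0), 1272 (RM0), 4082 (M1), 3960 (RM1), 1121 (M2) and 988 (RM2), and its log2 fold change was -0.22 for RM1 against M1. Rfx5, a subunit of the factor that binds the X box, had counts of 352 (M0), 308 (RM0), 112 (M1), 133 (RM1), 330 (M2) and 343 (RM2). It went against the class I genes, with a log2 fold change of -1.22 in M1 against M0. The edgeR test called 8 of the 15 higher with M1 and 4 lower (Rfx5, Nfyb, Nfyc and Rela), where 23.3% of all genes passed as higher and 24.3% as lower. With M2 it called 1, Nfkb1, higher (log2 0.76, adjusted p 0.0372), beside 0.156% of all genes. With irradiation it called none in any of these pathway lists, beside 0.346% higher and 0.13% lower of all genes. The lists are too short for a lack of calls to set them apart from these shares.

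Of the 5 genes of IFN-γ receptor signalling, Jak2 and Socs1 were called higher in M1 and in RM1. Of all genes, 9.37% were called higher in M1 against M0 and 6.16% in RM1 against RM0. Jak2, a kinase of the receptor, had counts of 1381 (M0), 1452 (RM0), 3162 (M1), 4141 (RM1), 1824 (M2) and 2161 (RM2). Socs1, the feedback inhibitor, had 18, 24, 205, 63, 35 and 26 counts. Socs1 was lower in RM1 than in M1 by a log2 fold change of -1.85, while Jak2 had the higher count in RM1. The edgeR test called 4 of the 5 higher with M1 (Jak1, Jak2, Socs1 and Ifngr2), beside 23.3% of all genes.

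**Figure D5:**
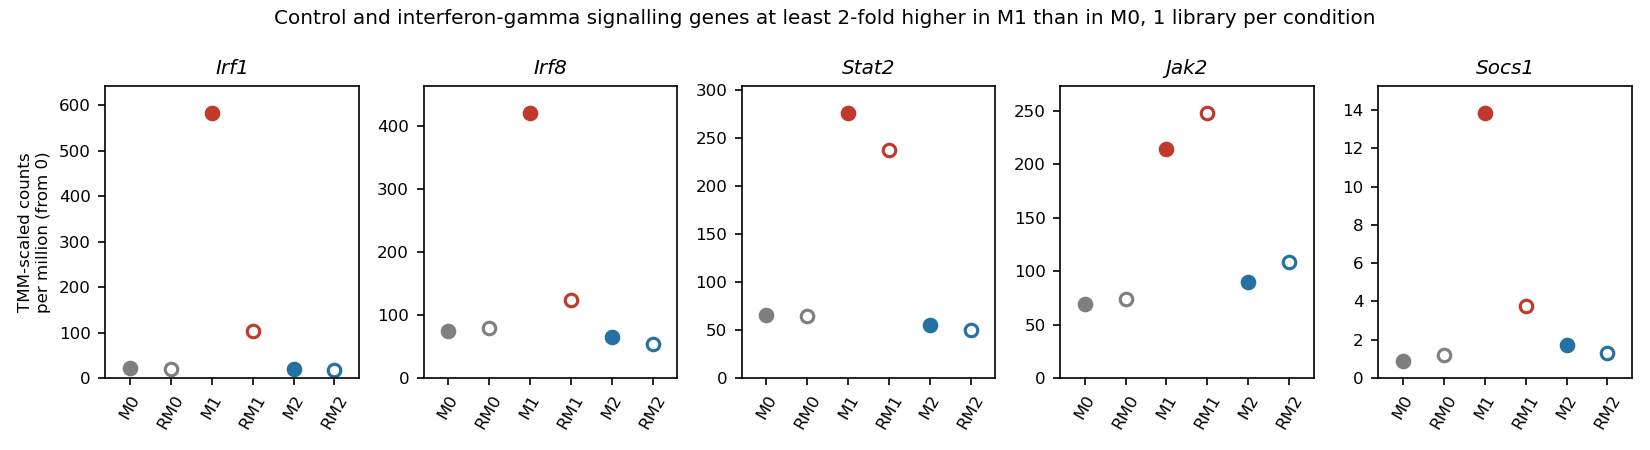
Each panel plots the TMM-scaled CPM (vertical axis from 0) of 1 of 5 genes called higher in M1 against M0 in the lists of transcriptional control and IFN-γ receptor signalling, in the 6 libraries, with filled points for non-irradiated and open points for irradiated libraries. Irf1 stands at 584 in M1 and 103 in RM1, Irf8 at 421 and 123, while Stat2 stands at 276 and 238 and Jak2 at 214 and 248.

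The profile of the 10 genes over the 6 libraries was compared with those of 9402 genes that had a mean of at least 100 counts. Centred on its own mean, the average of the 10 log2 profiles was 1.73 in M1 and 0.71 in RM1, and -0.46 in M0, -0.48 in RM0, -0.61 in M2 and -0.89 in RM2. The nearest genes outside the list by root mean square difference were Id1 (0.10), Pnp (0.10), H2-L (0.11), Tmsb10 (0.13) and H2-Q10 (0.13), all on the log2 scale. The H2-L row lies within the annotated gene of the member H2-D1, so its nearness is not a separate observation. Among the 10 genes themselves this distance from their average was smallest for H2-D1 (0.13), Psmb8 (0.17), Tapbp (0.17) and B2m (0.18) and largest for Nlrc5 (0.58) and Psmb10 (0.54). Nearest to Nlrc5 were Apool (0.05), Itgb1bp1 (0.06) and Lipa (0.06).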

How the data were processed

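The authors trimmed reads with Trimmomatic (version 0.36), aligned them to mm10 with HISAT2 (version 2.2.1) and counted them with HTSeq (version 0.11.3), per the submitters' processing notes. They deposited raw counts for 24062 gene rows in 6 libraries, without normalization. Strand and the handling of reads with several positions are not given in the sources used here. Samples were grouped by the labels.

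From these counts, TMM factors of edgeR (version 4.0.16, R version 4.3.3) were computed over genes that reached 10 counts in 3 or more libraries. Clopper-Pearson intervals at 95% and the limit of 3 counts cover counting error only. The additive edgeR test, with Benjamini-Hochberg adjustment over all genes at 0.05, was tested on simulated data. The simulated effects were equal in all libraries that carried them, so this does not cover effects that differ between states. Transcript lengths came from GENCODE M21. The alternatives were other scalings, prior counts of 0.25, count filters, fold thresholds of 1.5 and 4, removal of the GC trend, DESeq2 (version 1.42.0) and states left out.

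The members and lists were chosen with earlier results of these data known. All members were named, and pathway genes were named when called in a comparison with a mean of at least 50 counts. Psmb5, Psmb7 and Psme3, used in read ratios, and genes named beside counts of 5 or fewer were chosen after their values were seen. Figures used Python 3.11.15 with matplotlib 3.10.9. 1 gene of the control list is not reported here.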

Additional observations from a re-analysis of the deposited data

Results flagged for a closer look

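H2-D1 was marked because its counting intervals lay on opposite sides of 0 in 2 irradiation comparisons. Its log2 fold change was 0.0398 in RM0 against M0 (0.01 to 0.07) and -0.61 in RM1 against M1 (-0.63 to -0.59). With 1 library per condition the difference between the states was not tested. Scaled by library totals instead of TMM, the value of RM0 against M0 was -0.0101 and that of RM1 against M1 -0.47, so that both were below 0. With the reads of the heavy chain rows summed they were -0.0129 and -0.65, and with the GC trend removed 0.0023 and -0.45.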

How the results depend on the processing

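No paired analysis was possible because each condition had 1 library and the labels carry no replicate numbers, that is, no fit with a replicate block. The term for state in the additive model does set each irradiated library beside the non-irradiated one of its state. At a 4-fold threshold 4 of the 10 genes were called higher in M1 against M0, 0 in RM1 against RM0, and 1 lower in RM1 against M1. At a 1.5-fold threshold 1 was called lower in RM2 against M2 and 2 in RM2 against RM0. No shares of all genes at these thresholds are given here, so these counts are not set against the whole table. For the irradiation effect shared by the states, 2 genes were called lower without the M0 and RM0 libraries, 4 without M2 and RM2 and 1 with DESeq2. Without M1 and RM1, the irradiation effect of Nlrc5 turned to 0.0753 (edgeR adjusted p 0.839), and 4 genes were called lower for the M2 effect. Leaving out a state changes both the libraries and the residual degrees of freedom, and the cause of these differences was not tested. Over all genes, the irradiation effect was called for 40 higher and 15 lower genes, for 3 and 0 with library totals, for 74 and 82 without the count filter, for 290 and 244 without M1 and RM1, and for 0 and 0 without the term for state. The other settings gave 28 to 80 higher and 9 to 47 lower. The M2 effect, 18 higher and 4 lower, became 791 and 550 without M1 and RM1, and 0 to 41 and 0 to 15 otherwise. The M1 effect, 2692 higher and 2817 lower, became 1091 and 4750 with library totals. The other 149 counts of called members under an alternative stayed within 1.5 times the reported count. Summing the reads of the H2 class I heavy chain rows, without H2-L and repeated rows, gave log2 fold changes of 1.86 in M1 against M0 and -0.65 in RM1 against M1, beside -0.29 for H2-K1 alone. The depth left Psmb9 with 121 to 1378 and Psmb10 with 178 to 2245 counts, the widest intervals of the 10 genes.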
